A study of Mus musculus with 11 samples.

Results

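Dmrta1, Gm12666, Lrrc19 and Gm12689 lie on mouse chromosome 4, on the side of the tumour suppressor gene Cdkn2a that runs towards higher positions, and carried variants in the KPP-eGFP tumour cell line. They hold 12 of the 621 variants of the exome data and are 4 of its 304 genes with a call. The members were chosen by their position and by their variant allele frequency, which is the share of reads at a site that carry the non-reference base, so the order and the levels of these frequencies are given as a description with no test. Dmrta1 has 1 variant, Gm12666 has 6, Lrrc19 has 2 and Gm12689 has 3. Another 28 variants in 14 genes lie in the same interval, which holds 40 variants in 18 genes.

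Whole exomes were sequenced from the KPP-eGFP line, a clonal mouse pancreatic ductal adenocarcinoma line from a genetically engineered tumour that was given an eGFP reporter, before and after it was grown in mice. The culture group has 3 libraries of the line before implantation, labelled 1-B, 2 and 2-B. The tumour group has 5 libraries of STAMP tumours, small tumours seeded through micropores in mouse skin, sampled 3 weeks after implantation and named by where T cells lay: immune-inflamed 1-3 and 2-1, immune-excluded 1-4 and 2-2, and immune-desert 2-3. The 3 spleen libraries of the wild-type host strain were the matched normal for calling, and tumour calls were limited to variants already seen in the line. The study describes the exome samples of tumours as pooled biopsies and the labels do not say how many went into each, so a tumour below stands for 1 such library and not for 1 lesion. Hosts were young adult male mice according to the study's methods. Every tumour group carries the same cell line, eGFP included, and the biopsies also hold host cells. Neither the genotype behind the name KPP nor the age and strain of each mouse is given in the labels, and they do not say whether libraries came from separate cultures or animals, so every spread below is one between libraries and may be technical.

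Cdkn2a encodes p16INK4a, an inhibitor of the cyclin D kinases that act on the retinoblastoma protein, and through another reading frame ARF, which protects p53 by binding Mdm2. The locus is lost in many pancreatic cancers and in the mouse models built from them, together at times with its neighbours Cdkn2b and Mtap. A variant on every chromosome copy of a region is read at a frequency near 1 in a pure cell line, one carried on some of the copies is read at a lower frequency, and reads from host cells lower both in a biopsy.

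Dmrta1 encodes a transcription factor with a DM domain, the DNA-binding fold shared with the sex-determination factor Dmrt1. Its variant H329R lies at chr4:89691790 (GRCm38), in coding exon 2 of 2 of a gene for 490 residues, 0.397 Mb beyond the end of Cdkn2a. Gm12666 is a predicted gene of 253 residues on the minus strand, protein-coding in GENCODE M21 and listed as a pseudogene in RefSeq. Its 6 variants span 814 bases from position 92190768 to 92191581. They are the missense changes V247D and M234K in exon 4, R205K and E131K in exon 3, a deletion of 1 base at residue 87 in exon 3 (E87fs), and a change in an intron 4 bases from an exon (the splice region variant). Lrrc19, a membrane protein with leucine-rich repeats that is best known from the kidney, has N245D and T239A in exon 4 of 5, 19 bases apart when both ends are counted. Gm12689 is a predicted gene with 1 coding exon and 117 residues, in which L44P, S50F and E77A fall within 100 bases. The last of the 12 lies 10 Mb from Cdkn2a.

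The sequences below are the GRCm38 reference around the variants on which the comparison of near-complete and lower frequencies turns, printed on the plus strand with the reference base that varies in capitals and 15 bases on either side. Gm12666 and Lrrc19 are coded on the minus strand, so their letters are complementary to the coding strand, and those of Dmrta1 and Gm12689 read as coded.
Dmrta1 H329R, chr4:89691775-89691805: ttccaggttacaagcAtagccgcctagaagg
Gm12666 V247D and M234K, chr4:92190753-92190822: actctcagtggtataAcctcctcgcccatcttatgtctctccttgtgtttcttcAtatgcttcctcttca
Gm12666 E87fs, chr4:92191306-92191337: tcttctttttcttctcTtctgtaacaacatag
Gm12666 splice region, chr4:92191566-92191596: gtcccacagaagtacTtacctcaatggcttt
Lrrc19 N245D and T239A, chr4:94639225-94639273: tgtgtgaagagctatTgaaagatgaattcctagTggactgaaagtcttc
Gm12689 L44P, S50F and E77A, chr4:99296027-99296156: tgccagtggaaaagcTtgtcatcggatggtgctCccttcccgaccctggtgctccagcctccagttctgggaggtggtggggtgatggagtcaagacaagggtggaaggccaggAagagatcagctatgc

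The frequency of Dmrta1 H329R was near complete in culture. It was 0.991 in library 1-B, 1 in library 2 and 1 in library 2-B, a mean of 0.997 ± 0.00520 (SD, n = 3). The tumours gave 0.332 and 0.351 (immune-inflamed 1-3 and 2-1), 0.467 and 0.285 (immune-excluded 1-4 and 2-2) and 0.679 (immune-desert 2-3). Every tumour lay under every culture library, and the immune-desert sample was the highest tumour.

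Gm12666, the first member beyond the change in level, had all 6 variants called in all 3 culture libraries, between 0.274 and 0.500. V247D was at 0.383, 0.483 and 0.432 in libraries 1-B, 2 and 2-B, and R205K at 0.483, 0.475 and 0.472. The means of these variants were 0.432 ± 0.0496 and 0.477 ± 0.00540 (SD, n = 3), so both were well under the Dmrta1 level. R205K differed little between libraries and V247D differed more. In the tumours V247D was at 0.102 and 0.130 (immune-inflamed), 0.212 and 0.134 (immune-excluded) and 0.270 (immune-desert). R205K was at 0.0948 and 0.150, then 0.260 and 0.124, and then 0.315 in the same order. For both variants the immune-desert sample was again the highest and immune-excluded 1-4 the next.

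The frameshift deletion E87fs was read at 0.390, 0.455 and 0.456 in culture, and at 0.130, 0.166, 0.193, 0.120 and 0.302 in immune-inflamed 1-3 and 2-1, immune-excluded 1-4 and 2-2 and immune-desert 2-3. E131K was at 0.458, 0.500 and 0.459 in culture, had no call in immune-inflamed 1-3, and was at 0.176, 0.183, 0.145 and 0.354 in the other tumours. The deletion thus stood at the level of the substitutions around it. M234K was lower, at 0.388, 0.436 and 0.400 in culture and from 0.109 to 0.310 in the tumours. The splice region variant was the lowest of the 12 in culture, at 0.393, 0.274 and 0.286 (mean 0.317 ± 0.0656), with tumour values of 0.0823 and 0.0750 (immune-inflamed), 0.171 and 0.0808 (immune-excluded) and 0.180 (immune-desert).

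Gm12666 resembles Larp7, which encodes a La-related protein that binds and stabilises the 7SK RNA. Over chr4:92190719-92191681 the reference aligned to Larp7 at chr3:127545801-127546750 with 930 of 943 aligned bases identical (98.6%) and 27 bases in gaps. M234K and the splice region variant, the pair with the lowest culture means of the 6, each put at the site the base that Larp7 has there, and the 31-base window with the alternate base occurs once elsewhere in the genome, in Larp7. At the other 4 sites Larp7 has the reference base of Gm12666. Reads may therefore be shared between these genes, and their levels are uncertain for that reason. The spleen fraction was 0 at both sites and Larp7 itself had 0 called variants, and the part of Larp7 reads in the Gm12666 frequencies was not tested.

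Lrrc19 had the sparsest calls of the 4 genes, 3 of 6 possible culture calls and 5 of 10 possible tumour calls. N245D was read at 0.500 in culture 1-B and 0.556 in culture 2, and at 0.214 and 0.200 in immune-excluded 1-4 and 2-2. T239A was at 0.640 in culture 2, the highest value of any member beyond Dmrta1, and at 0.161 in immune-inflamed 2-1 and 0.250 and 0.200 in the immune-excluded samples. Culture 2-B, immune-inflamed 1-3 and immune-desert 2-3 had no Lrrc19 call. The sites are close enough to share reads, so they are not independent measurements. Since no depth was given, a missing call cannot be told apart from a site with few reads.

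Gm12689, the farthest member, stood at the level of Gm12666. L44P was at 0.381, 0.419 and 0.466 in the culture libraries, S50F at 0.395, 0.410 and 0.395, and E77A at 0.455, 0.486 and 0.407. Their means were 0.422 ± 0.0425, 0.400 ± 0.00872 and 0.449 ± 0.0398 (SD, n = 3). E77A had a call in all tumours, at 0.158 and 0.148 in immune-inflamed 1-3 and 2-1, 0.300 and 0.171 in immune-excluded 1-4 and 2-2, and 0.250 in immune-desert 2-3. Unlike the other 6 variants called in every library, it was highest in immune-excluded 1-4 and not in the immune-desert sample. L44P was missing from immune-inflamed 1-3 and S50F from immune-inflamed 1-3 and immune-excluded 2-2. Where called, L44P ranged from 0.102 to 0.250 over 4 tumours and S50F from 0.0986 to 0.220 over 3.

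**Figure D1:**
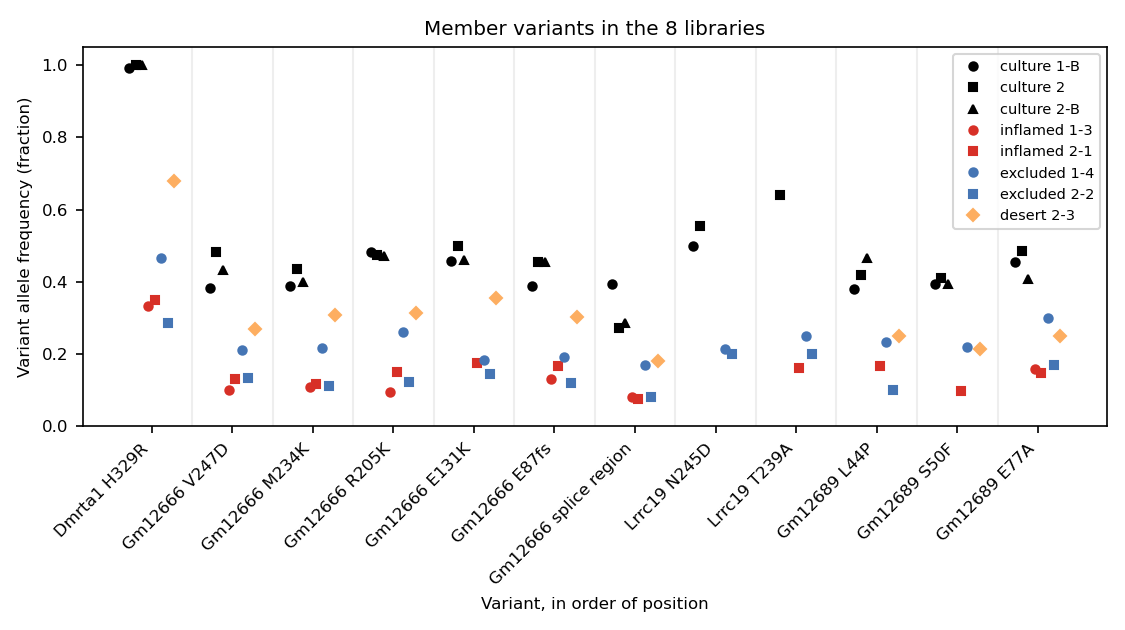
Variant allele frequency (fraction of reads, y axis) of the 12 variants in order of position (x axis), with 1 point for each library with a call: black for culture, red for immune-inflamed, blue for immune-excluded and orange for immune-desert. Dmrta1 H329R stands at 0.991 to 1 in culture, while the other variants reach at most 0.640.

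Ordered along the chromosome, the culture frequencies fell into a short stretch near 1 followed by a long stretch near 0.43. The near-complete stretch contained Dmrta1 and Zfp352, a zinc-finger gene expressed in early embryos, with 5 variants over 0.533 Mb. The 4 Zfp352 variants, from position 90223933 to 90224966, had culture calls of 0.983 to 1, and no culture call of these 5 variants was under 0.983. The next variant, Izumo3 N150T at 92145648, was at 0.415, 0.418 and 0.489, and no later culture call exceeded 0.640. The change in level thus lay in the 1.92 Mb between these positions. Elavl2, a neuronal RNA-binding protein gene, is the coding gene that falls wholly inside. The stretch holds 1845 coding bases in all, those of Elavl2 and of the parts of Zfp352 and Izumo3 inside it. Of 14 neighbour genes that were looked up by name, Ift74, Izumo3 and Tusc1 had a call (4 variants in all), and Cdkn2a, Cdkn2b, Mtap, Elavl2, Caap1, Plaa, Tek, Jun, Nfia, Jak1 and Lepr had none.

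The lower level continued to the end of the interval. The 11 member variants beyond the change had culture means from 0.317 to 0.640 with a median of 0.434. Over all genes there, 33 of 35 variants had a culture mean of 0.25 or more, in 14 genes, with a median of 0.432. Apart from the members, these 33 were in Izumo3, Tusc1, Gm10306, Eqtn, Mysm1, Inadl, Usp1, Atg4c, Ube2u, Cachd1 and 4930456L15Rik, with culture means from 0.302 for the Cachd1 splice region variant to 0.508 for Gm10306 L106P. The exceptions were Ift74 R531T at 0.235 and Kank4 N582T at 0.0365, each called in 1 culture library. In the 11.2 Mb of this stretch, 16 genes had a call, and GENCODE M21 has 65 coding genes there. These lists of names were not matched, so no share is given. The 35 variants, splice region variants in introns included, came to 32.1 for every 100 kb of coding sequence. Median frequencies of the member variants beyond the change were 0.394, 0.475 and 0.432 in culture libraries 1-B, 2 and 2-B.

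Cdkn2a itself, at chr4:89274471-89294653, had no call in any library, and neither had Cdkn2b or Mtap. The empty stretch around it ran 0.841 Mb from Ifna1 A174T at 88850606, called at 1 in 2 culture libraries and in no tumour, to Dmrta1 H329R, and it holds 3541 coding bases. A file of calls does not list sites without a variant, so a deleted locus, an unchanged locus and one without reads cannot be told apart here. On the far side of Cdkn2a, 105 variants in 12 genes of the interferon cluster had culture calls from 0.0336 to 1, with a culture mean over 0.9 for 25 and under 0.25 for 40. These are near-identical gene copies that can exchange reads, so no boundary was read from them. Still further out, Haus6 P850S at position 86583085 and Plin2 L183M at 86661976 had culture means of 0.443 ± 0.0626 and 0.402 ± 0.0614 (SD, n = 3), at the level of Gm12666 and Gm12689.

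**Figure D2:**
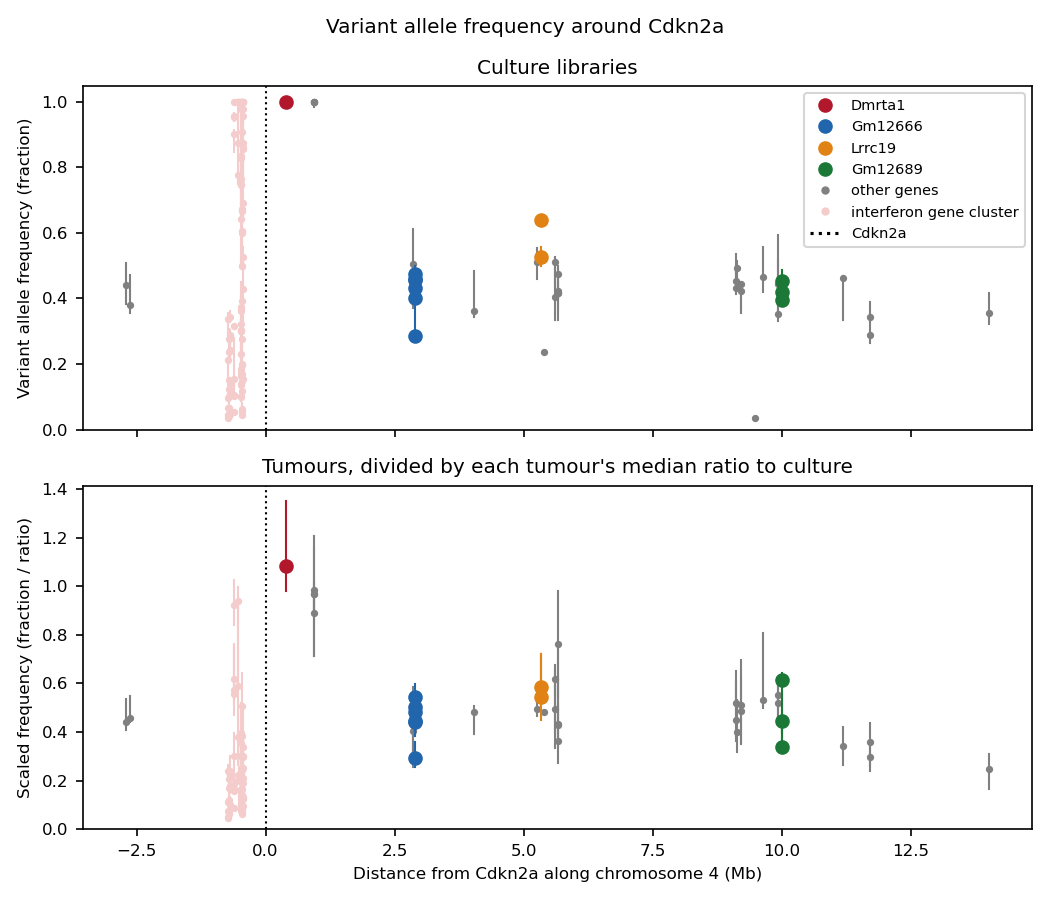
Variant allele frequency against distance from the end of Cdkn2a (Mb, x axis) in the 3 culture libraries (top) and in the 5 tumours after division by each tumour's median ratio to culture (bottom); points are medians and lines run from the lowest to the highest library with a call. Dmrta1 and the Zfp352 variants beside it stand near 1 in culture, and from Izumo3 onwards the culture medians lie at or under 0.640.

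Dmrta1 H329R exceeded every member variant beyond the change in each of the 5 tumour libraries, as in the 3 of culture. In immune-desert 2-3, for example, it was at 0.679 while the 9 others called there ran from 0.180 to 0.354. Relative to the median of the 6 such variants called in every library, Dmrta1 was higher by a ratio of 2.36 ± 0.193 in culture (SD, n = 3) and 2.51 ± 0.375 in the tumours (SD, n = 5). Ratios in single tumours were 3.15 and 2.52 (immune-inflamed), 2.18 and 2.34 (immune-excluded) and 2.37 (immune-desert). With Zfp352 and all later genes included, the 2 stretches did not overlap in any culture library or in 3 of the 5 tumours. They overlapped in immune-inflamed 1-3, where the lowest value before the change was 0.175 and the highest after it 0.241, and in immune-inflamed 2-1, where these were 0.211 and 0.238.

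Whether the tumours departed from the line was examined next, after division of each tumour by its median ratio to the culture mean over the 258 variants called in all 8 libraries. These ratios were 0.246 and 0.295 in immune-inflamed 1-3 and 2-1, 0.477 and 0.278 in immune-excluded 1-4 and 2-2, and 0.627 in immune-desert 2-3. Over the 7 member variants called everywhere, the median ratios were 0.268, 0.314, 0.529, 0.276 and 0.660 in the same order. The member medians were thus above the median of all variants in 4 tumours and just below it in immune-excluded 2-2. For Dmrta1 alone the ratios were 0.333, 0.352, 0.468, 0.286 and 0.681.

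**Figure D3:**
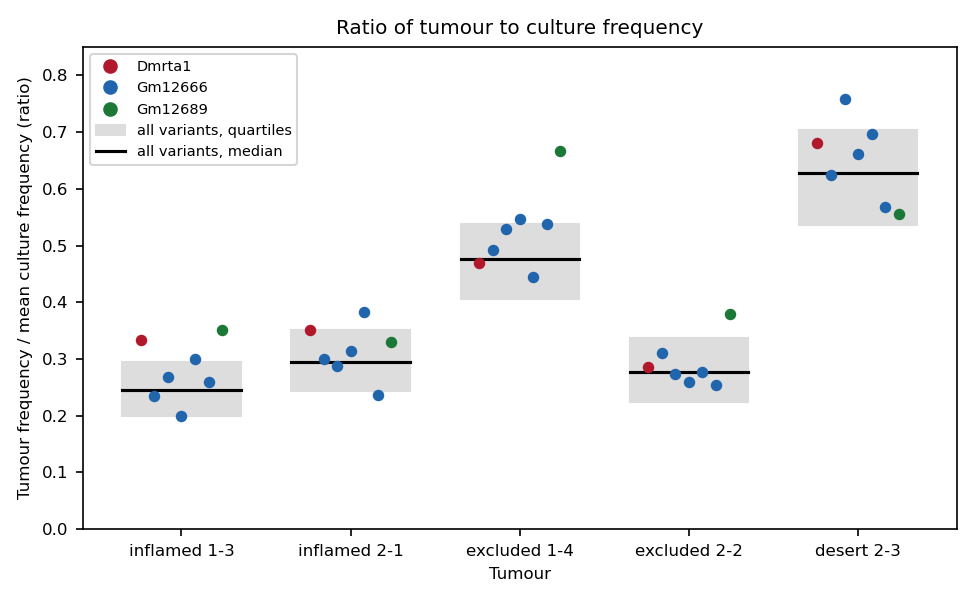
Ratio of tumour frequency to mean culture frequency (y axis) in each of the 5 tumours (x axis) for the 7 member variants called in all libraries (points), beside the median (line) and quartiles (grey box) of all 258 variants called in all libraries. Most points lie in or near the box of their tumour. Gm12689 E77A lies above it in immune-inflamed 1-3 and in both immune-excluded samples. Dmrta1 H329R and Gm12666 E87fs lie above it in both immune-inflamed samples, R205K in immune-excluded 1-4 and M234K in immune-desert 2-3. R205K lies below it in immune-inflamed 1-3 and the splice region variant in immune-inflamed 2-1.

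No member variant passed the test for a difference between tumours and culture (limma on the scaled frequencies, Benjamini-Hochberg adjustment over all 258 variants), against 21 of all 258 variants (8.14%). The choice of the members had read these same frequencies. Their results here and between the phenotypes below are thus a description and no independent support. The adjusted p of the 7 members ran from 0.343 to 0.990, and 0 of them against 57 of all variants had an unadjusted p under 0.05. Dmrta1 H329R had a scaled tumour mean of 1.12 ± 0.148 (SD, n = 5) against 0.997 in culture, a difference of 0.13 (SE 0.0852, limma adjusted p = 0.434), and was higher in 4 of 5 tumours on that scale. Without immune-inflamed 1-3 the difference was 0.0717. A frequency cannot exceed 1, so a scaled value above 1 is relative to the other variants and is not a share of reads. A rise of Dmrta1 above its culture level could therefore not be read from it. Gm12689 E77A had the next largest difference, 0.11 (SE 0.0600, limma adjusted p = 0.343), also higher in 4 of 5. The others differed by -0.0124 to 0.0479. Of the 7 differences 6 were above 0, against 137 of all 258 variants, and the members' median was 0.0298 against 0.00683. Most of the 7 lie in Gm12666 within 814 bases, and all were divided by the same ratios. They are not independent measurements, so the count is not read as a shared shift.

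Where at least 2 culture libraries and 2 tumours had a call, 11 of the 12 members could be fitted, which adds Gm12666 E131K, Lrrc19 N245D, Gm12689 L44P and Gm12689 S50F. None of the 11 passed the test, with adjusted p from 0.329 to 0.998, while 44 of 371 variants did. Lrrc19 N245D differed by 0.0563 (SE 0.0969, limma adjusted p = 0.798), from 2 culture libraries and 2 tumours. T239A, with a single culture call, was not fitted. A p that misses the threshold does not show that the frequencies were alike in the tumours and the line.

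Between immune phenotypes, no variant passed the test in either comparison (0% of 258 for the immune-inflamed against the immune-excluded samples, and 0% for the immune-desert sample against the others). The unadjusted p was under 0.05 for 38 and 18 of all variants and for 2 and 1 of the members. Dmrta1 H329R was at 1.35 and 1.19 on the scaled frequency in the immune-inflamed samples and at 0.980 and 1.03 in the immune-excluded samples. The difference was 0.27 (SE 0.0734, limma adjusted p = 0.220). Before scaling, the Dmrta1 mean was 0.341 in the immune-inflamed and 0.376 in the immune-excluded samples, the other direction. The Zfp352 variants beside it went both ways on the scaled frequency. They differed by 0.0779 for S103R, 0.191 for P393R, -0.175 for T144I and -0.0344 for V448M. Without immune-inflamed 2-1 the Dmrta1 difference was 0.35, and without immune-inflamed 1-3 it was 0.18. Each of these fits has a single immune-inflamed sample that is assumed to vary like the other groups. Their test results are therefore not given, and the 0% above holds for the fit with all 8 libraries. Gm12666 E87fs was also higher in the immune-inflamed samples, by 0.13 (SE 0.0503, limma adjusted p = 0.290), with scaled values of 0.528 and 0.563 against 0.404 and 0.431. For Gm12689 E77A the immune-desert sample, at a scaled 0.399, was lower than the other phenotypes by a difference of -0.20 (SE 0.0683, limma adjusted p = 0.553). The immune-desert group has 1 sample, so its difference has no replicate of its own.

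The choice by position and frequency did not use the polymorphism listing. A polymorphism number, the mark of a site listed as polymorphic among mice, stood beside 11 of the 12 (91.7%), the exception being the deletion E87fs. It stood beside 27 of the other 28 variants of the interval (96.4%) and 225 of 581 variants elsewhere (38.7%). The spleen fraction was 0 at 11 of 12 members and 0.00299 at Gm12666 R205K, which calling against the spleen selects for in every variant. The reference window around each of the 12 sites occurs at 1 place in the genome.

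Call quality varied among the members. The tier of a call, 1 being the stricter, was 1 for 65 and 2 for 19 of the 84 member calls, so 77.4% were of tier 1 against 89.5% of all calls in the data. All 8 calls of Gm12666 M234K, of E87fs and of the splice region variant were of tier 1, while E131K had 2 of tier 1 and 5 of tier 2. Dmrta1 had 5 of tier 1 and 3 of tier 2. Of the 12 members 7 had a call in immune-inflamed 1-3, 11 in immune-inflamed 2-1, 12 in immune-excluded 1-4, 11 in immune-excluded 2-2, 10 in immune-desert 2-3 and 10 to 12 in the culture libraries. Over all variants the counts ran from 310 in immune-inflamed 1-3 to 399 in immune-desert 2-3 and from 494 to 548 in culture.

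Along the pathway in which Cdkn2a acts, 1 of 23 genes had a call, while 304 genes had one in the whole exome data. The number of genes that were read is not given, so the shares cannot be compared and the count is not a result about the pathway. That gene was Rbl2, a relative of the retinoblastoma protein, with 3 variants. There was no call in the inhibitors Cdkn2a, Cdkn2b, Cdkn2c, Cdkn2d, Cdkn1a and Cdkn1b, the cyclins Ccnd1, Ccnd2, Ccnd3, Ccne1 and Ccne2, or the kinases Cdk4, Cdk6 and Cdk2. Nor was there one in Rb1 and Rbl1, in the transcription factors E2f1, E2f2 and E2f3 that they bind, or in Mdm2, Mdm4 and Trp53. As for Cdkn2a, a gene without a call may be unchanged, deleted or without reads.

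Outside chromosome 4, the variants whose frequencies over the 8 libraries were nearest to the mean of the 7 members were Tln2 L859F on chromosome 9, Olfr61 N196T on chromosome 7 and Farsa G291D on chromosome 8, with root-mean-square differences of 0.0175, 0.0237 and 0.0239 among 203 variants. That mean mixes Dmrta1 with the lower variants, so both levels were also set against the rest, a choice made after their values were seen. Dmrta1 was nearest to 1700034J05Rik E166K (0.0195), 1700034J05Rik S50C (0.0244) and Arntl2 H423Q (0.0293), all on chromosome 6 and all at culture means from 0.994 to 0.997. The 6 members beyond the change were nearest to Man2b1 N548N (0.0178), Man2b1 V344A (0.0255) and Sall1 A956T (0.0276), all on chromosome 8.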

How the data were processed

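Exome libraries of the cell line, the tumours and the spleens were read as short pairs. The authors mapped them to GRCm38 with BWA, realigned and marked duplicates after GATK, and called variants against the spleen with Strelka, with no versions stated. The deposited file gives, for each call, the variant allele frequency and the spleen's, both a fraction, and the tier of the call, a score of 1 or 2. It holds 11 columns for each sample, of which 7 were left unused, 5 of them empty. Depth is unknown, so no interval was computed.

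The members and gene lists were chosen with earlier results of these data known. Every variant of the 4 genes, every other gene with a call in the interval, its fixed neighbours, the Cdkn2a pathway and the 3 nearest profiles are named. Tumour frequencies were divided by their median ratio to culture over 258 variants called in all 8 libraries. They were compared with limma 3.58.1 (R 4.3.3, trended eBayes, Benjamini-Hochberg over 258, threshold 0.05). The procedure was also run on simulated data in which variants varied independently. Variants that lie close together may not do so, and that run does not measure the errors for them. Gene models were GENCODE M21, and the sequences were read from RefSeq's GRCm38 genome. Gm12666 was aligned to Larp7 with Biopython 1.88. The alternatives were other scalings, variant sets, tiers, the log2 scale, weights, no trend, the omission of each library and a replicate block.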

Additional observations from a re-analysis of the deposited data

How the results depend on the processing

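With no scaling, which leaves every tumour value lower, 255 of 258 variants and 7 members passed the test between tumours and culture, the members' median difference was -0.252, and 4 members among 144 of all 258 variants passed for the immune-desert group of 1 sample. The differences then were -0.57 for Dmrta1 H329R, -0.26 for Gm12666 V247D, -0.24 for M234K, -0.29 for R205K, -0.25 for E87fs, -0.20 for the splice region variant and -0.24 for Gm12689 E77A. Gm12666 R205K, at 0.000656 as reported, turned to -0.00836 with scaling over culture frequencies of 0.25 to 0.75, to -0.0122 with scaling over variants not on chromosome 4 and to -0.00839 on the log2 scale, and V247D turned to -0.00184 with the second of these. Counts of all variants past the threshold were 44 with missing calls allowed, 13 on tier 1 calls and 38 with weights, against 21. The members' ratio to culture relative to that of all variants was 1.06, and 1.12 on tier 1 calls, where 132 variants and 3 members could be fitted. The median difference on the log2 scale, another unit, was 0.0988.

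Between tumours and culture, leaving out 1 library at a time gave 18 to 26 variants and 0 members past the threshold. The members' median difference then ran from 0.0159 to 0.0451. Dmrta1 ran from 0.0717 (without immune-inflamed 1-3) to 0.16, E87fs from 0.0233 (without culture 1-B) to 0.0673, R205K from -0.0166 to 0.0236, V247D from -0.0165 to 0.0361 and the splice region variant from -0.0335 to 0.0241. For the immune-inflamed against the immune-excluded samples, the Dmrta1 difference was 0.35 without immune-inflamed 2-1 and 0.18 without immune-inflamed 1-3. The cause of this spread was not tested. Each of these fits has 1 immune-inflamed sample, so no test result is given for it. A replicate block by the first number of the tumour labels gave 0 of 258 variants and 0 members. Of 220 values recomputed, 191 kept their direction and side of the threshold or stayed within the spread between libraries. With depth unknown, the precision of single frequencies cannot be given.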
